A study of Homo sapiens with 38 samples.

Results

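Palbociclib is an inhibitor of the cyclin-dependent kinases CDK4 and CDK6. A pooled CRISPR knockout screen of Hep3B, a human hepatocellular carcinoma cell line, was examined here for the genes whose loss made cells scarcer or more abundant in its presence. Of the 38 samples of the study, 4 guide-count libraries hold this comparison: 2 labelled Palbociclib and 2 labelled T1, which was taken as the vehicle arm because the study's methods list a vehicle group and the labels name each of the other arms. All of these libraries came from Cas9-expressing Hep3B cells infected at low multiplicity with the TKOv3 knockout library, and drug and vehicle cells were sampled after 14 days, with drug given at a low growth-inhibitory dose. The rule for members took every guide of these libraries, grouped by its target gene, which gave 66890 guides for 18029 genes and 132 control guides against LacZ, luciferase or EGFP, which human cells lack. The same table holds the T0 baseline and 5 further inhibitors, and a second line, SNU-398, was screened with the same drugs. Expression was taken from 3 RNA libraries labelled as wild type Hep3B, which were made beside PSTK knockout libraries.

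As background, D-type cyclins bound to CDK4 or CDK6 phosphorylate the retinoblastoma protein RB1, which frees E2F factors to drive entry into S phase. INK4 proteins (CDKN2A to CDKN2D) block CDK4 and CDK6, whereas cyclin E with CDK2 can phosphorylate RB1 in parallel. A pooled screen reads guide abundance: a guide that falls marks a knockout whose cells multiplied less or died more with drug than with vehicle, and a guide that rises marks the opposite. Following the naming used in the study, a gene with a negative normalized Z-score (NormZ) was termed a resister, and a gene with a positive one a sensitizer. NormZ sums over a gene's guides and both libraries, in units of the spread of guides of like abundance. That spread was not let shrink as abundance fell, so guides of the lowest counts were divided by the spread of better-counted guides. A gene was called at a one-sided normal p under 0.01, without adjustment, and the false discovery rate (FDR, Benjamini-Hochberg over all genes) is given beside the calls.

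The knockouts that fell furthest with Palbociclib were those of 2 kinases outside the CDK4 and CDK6 pair, CDK9 (NormZ -4.97) and CDK11A (NormZ -4.91), both known for roles in transcription and RNA processing. They were followed by genes of very different roles, among them the splicing factor SF3A2, the Integrator subunit CPSF3L, the purine synthesis enzyme GART and the selenocysteine enzyme PSTK. CDK6 itself fell (NormZ -2.50), but it did not pass an FDR of 0.05 and its call was lost in some settings. CDK4, RB1 and the D cyclins were not called. In the other direction PLEKHA1, ZSCAN16 and TEX2 rose, but no sensitizer passed an FDR of 0.05.

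The depth of the libraries was 24555074 and 12096140 counts for T1 and 18942366 and 11198022 counts for Palbociclib. Much of the guide pool was missing: 38.7% and 39.4% of guides had 0 counts in the T1 libraries and 49.1% and 49.5% in the Palbociclib libraries, against 4.34% and 6.43% at T0. The median guide had 18 and 10 counts with vehicle and 2 and 2 with drug. Between 91.3% and 98.1% of the counts in these 4 libraries were even numbers, the cause of which is not given in the sources used here. If fragments were counted in pairs, a minimum of 30 counts stands for fewer fragments and a count of 0 allows more deposited counts than the 3 used below. The 2 libraries of a group were nearly alike (Pearson r of log2 CPM, counts scaled to a common library total, of 0.994 for T1 and 0.995 for Palbociclib over all guides), and their counts differed with a chi-square per guide of 2.52 and 2.62 as deposited and of 1.26 and 1.31 after the counts were halved. Whether each library was a culture of its own is not given, so every test here rests on a spread that may be no more than technical.

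Guide abundance set how far a ratio could move. Among guides with a mean T1 count of at least 30, the 28902 targeting guides had a median log2 ratio (Palbociclib over T1, scaled counts with a pseudocount of 5) of -0.18 with an SD over guides of 1.06, and the 55 control guides had -0.11 with an SD of 0.94. Falls of over 2-fold were seen for 23.8% of targeting and 21.8% of control guides, and rises of over 2-fold for 6.97% and 7.27%. The spread shrank with abundance in both kinds, from an SD of 1.33 (targeting) and 1.40 (control) at 30 to 100 counts to 0.31 and 0.30 at 1000 counts or more. Control guides therefore moved about as widely as targeting guides of the same abundance. The guide with the largest T1 counts, against ZNF600, stood at 1833 and 1830 CPM with vehicle and 1848 and 1818 CPM with drug. The control targets were not alike: of 38 such LacZ guides 22 were lower and 10 higher in both libraries (median log2 ratio -0.28), while of 9 luciferase guides 2 were lower and 7 higher (median 0.71), and EGFP had 3 lower and 3 higher of 8.

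A test of single guides called most of what it could measure. By edgeR's quasi-likelihood test (Benjamini-Hochberg adjusted p under 0.05), 14893 of 43947 guides tested fell (33.9%) and 10587 rose (24.1%). Among control guides, 24 of 84 fell (28.6%) and 21 rose, 53.6% in all against 58.0% of all guides tested. A single guide's call was thus nearly as frequent where no human gene was targeted. Calls of genes below therefore rest on NormZ over all their guides. Where single guides are given they are examples under this limit, and scores in the second line are given for some genes only.

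Over genes, 349 of 18029 were called resisters (1.94%) and 129 sensitizers (0.716%). An FDR under 0.05 left 16 resisters (0.0887%) and 0 sensitizers by NormZ, and with guides under a mean count of 30 left out it left 0 of either. At an unadjusted p under 0.05, 1045 genes were lower and 707 higher. Calls depended on how well a gene was counted: of the 3330 genes with at least 3 guides at a mean T1 count of 30 or more, 5.80% were called resisters and 1.47% sensitizers, against 1.27% and 0.602% of the 12286 genes with 1 or 2 such guides, and 0 and 6 (0.249%) of the 2413 genes with none. Among the 193 resisters with at least 3 such guides, every one of those guides was lower in both libraries in 132, and among the 49 sensitizers every one was higher in 38. For all 3330 genes the shares were 14.2% and 4.77%. These counts only describe the called genes, since the same guide ratios made the calls.

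CDK9 is the kinase of P-TEFb, which releases paused RNA polymerase II into elongation. Its first guide stood at 9.69 and 7.61 CPM in the T1 libraries and at 0.528 and 1.79 CPM with Palbociclib. The second went from 19.7 and 15.7 CPM to 4.65 and 4.11 CPM, and the third from 9.29 and 8.10 CPM to 0.422 and 1.79 CPM. All 4 guides were lower in each drug library than in either vehicle library, with a median log2 ratio of -2.23 (FDR = 0.00418 by NormZ). CDK11A encodes a kinase of the CDK11 family, known for roles in transcription and splicing. Its best-counted guide went from 240 and 160 counts (9.77 and 13.2 CPM) with vehicle to 0 and 0 counts with drug, which allows up to 3 counts in each library. A further guide went from 3.75 and 3.64 CPM to 0 and 0.357 CPM. Its 3 well-counted guides were all lower, with an FDR of 0.00418. CDK11A has a near-identical copy, CDK11B, not analysed here, and whether its guides cut both could not be told. Both kinases also had negative scores with Abemaciclib, the other CDK4/6 inhibitor, at NormZ -3.90 for CDK9 and -2.53 for CDK11A. Falls were also seen with drugs that are not CDK4/6 inhibitors. The second CDK9 guide stood at 0.890 and 0.606 CPM with Sorafenib but at 31.5 and 32.2 CPM with Erastin. With Erastin the first CDK9 guide stood at 1.61 and 0.943 CPM and the third at 0.178 and 0.157 CPM, both below vehicle. The fourth stood at 1.38 and 2.31 CPM with vehicle and at 0.268 and 1.73 CPM with Erastin. The CDK9 guides thus disagreed with Erastin. The best-counted CDK11A guide stood at 0.801 and 0.757 CPM with Sorafenib and at 2.14 and 1.26 CPM with Erastin. All of these screens share the T1 libraries.

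The other genes among the 12 lowest were also carried by several guides. The 12 genes had 46 guides, 40 of them with a mean T1 count of at least 30, and all 40 were lower in both Palbociclib libraries, a description only, since the same ratios chose the genes. SF3A2, a subunit of the U2 small nuclear ribonucleoprotein, fell at 3 of 3 guides (NormZ -4.45, median log2 ratio -2.65). CPSF3L, the endonuclease of the Integrator complex, fell at 3 of 3 (NormZ -4.34), and its first guide went from 4.24 and 2.81 CPM to 0 in both drug libraries. SPTSSA, a small subunit of serine palmitoyltransferase, which starts sphingolipid synthesis, reached NormZ -4.05, and GADD45G, a stress-induced regulator of growth arrest, -4.02. TNFSF9, the ligand of the costimulatory receptor 4-1BB, reached -4.09, most of it from 1 of its guides. The remaining 5 were the membrane-spanning MS4A8 (-4.79), the zinc finger genes ZNF560 (-4.51) and ZNF653 (-4.49), the WD-repeat gene WDR89 (-4.21) and C1orf43 (-4.11).

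Genes of the drug's own target pathway were mostly flat. Of the 15 genes of the CDK4/6, cyclin D and RB list, 1 was called, CDK6, and the list's median NormZ was 0.09 beside 0.08 over all genes. The CDK6 guides went from 9.53 and 8.93 to 3.17 and 4.20 CPM, from 2.77 and 2.81 to 0.317 and 0.536 CPM, from 148 and 149 to 107 and 114 CPM, and from 366 and 388 to 354 and 349 CPM. Every guide was lower in both drug libraries, and the pair of rarer guides fell most. With Sorafenib that pair stood at 1.25 and 1.97 CPM and at 0.0890 and 0 CPM. With Abemaciclib it stood at 16.1 and 14.5 CPM and at 0.659 and 0.773 CPM. The CDK6 score (FDR = 0.436) was no longer called with a pseudocount of 1 (NormZ -2.12), with guides under a mean count of 30 left out (-1.81) or without replicate 1 (-2.29).

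The other members of the pathway were not called, and many had few counts. CCND1, the main D cyclin of many epithelial tumours, had NormZ -1.72 resting on 1 guide, which went from 6.76 and 6.78 CPM to 0.106 and 0 CPM. A further CCND1 guide went from 5.13 and 5.79 up to 7.71 and 9.47 CPM, so the guides disagreed. CCND2 stood at -0.88 and CCND3 at 0.37. CDK4 had a NormZ of 0.09 with 1 guide of at least 30 mean counts, at 1.55 and 2.65 CPM with vehicle and 1.16 and 0.893 CPM with drug. RB1, whose loss leaves CDK4 and CDK6 without their main substrate, had a NormZ of 0.52 on 2 measurable guides, at 2.85 and 3.80 against 3.38 and 3.39 CPM and at 3.91 and 1.82 against 2.75 and 2.86 CPM. The vehicle and drug values of both RB1 guides overlapped or lay close, and the remaining 2 had 0 counts in all 4 libraries. Of the related pocket proteins, RBL1 had 0.05 and RBL2 0.31. Among inhibitors of the kinases, CDKN1B (p27) had the highest value of the list at 1.38, followed by CDKN2D at 1.27 and CDKN2B at 0.97. CDKN2A had 0.18, CDKN1C 0.04, CDKN1A (p21) -0.08 and CDKN2C -0.28. Only 26 of the list's 58 guides had a mean T1 count of at least 30, and 4 of its genes had 3 or more such guides. How large a change could have been detected for the other genes was not tested.

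Of 902 genes in the 41 pathway lists, 32 (3.55%) were called resisters and 4 (0.443%) sensitizers, beside 1.94% and 0.716% of all genes. The list of other cell cycle and transcription kinases showed movement in both directions. Among 12 transcription CDKs and cyclins, CDK9 and CDK11A fell while CCNK, the cyclin partner of CDK12 and CDK13, rose (NormZ 2.56). The best-counted CCNK guide went from 18.0 and 17.4 CPM to 40.0 and 37.2 CPM. CCNK was not called without the guides under a mean count of 30 (1.75). Of 22 mitotic kinases and anaphase-promoting complex genes, the related kinases WEE1 and PKMYT1, which hold CDK1 inactive until mitosis, fell, both at NormZ -2.46. The abundant WEE1 guide dropped from 42.1 and 43.2 CPM to 11.8 and 16.7 CPM, and the PKMYT1 guide that moved most dropped from 16.5 and 17.4 CPM to 2.11 and 3.04 CPM, although PKMYT1 was not called without replicate 1 (-2.16). Of 43 DNA replication genes, GINS3 of the replicative helicase (-2.80) and RFC5 of the clamp loader (-2.76) fell. No gene of the lists for cyclin D turnover, CDK2 and cyclin E, E2F and DREAM, or CDK7 and the CDK-activating complex was called, and the lowest of these were CDC25A (-1.84) and E2F3 (-1.79).

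Folate-dependent metabolism held the largest scores of the metabolic lists. Of 21 folate one-carbon enzymes, 3 fell, among them GART (NormZ -4.02) and MTR (-2.83), with a list median of -0.58. GART carries formyl groups from folate into the purine ring, and its 2 measurable guides went from 13.5 and 12.1 CPM to 1.69 and 1.07 CPM and from 24.2 and 25.5 CPM to 4.33 and 4.11 CPM. Both drug libraries lay far below both vehicle libraries, and the FDR was 0.0383. MTR is methionine synthase, which takes its methyl group from folate. All 4 MTR guides were lower, with a median log2 ratio of -0.77. In the purine and pyrimidine synthesis list GART was the 1 gene called of 16 (median -0.62), with PFAS at -1.77 and DHODH at -1.70. In the folate biosynthesis theme of the study, GCH1, the first enzyme of tetrahydrobiopterin synthesis, was called of 25 (NormZ -3.13).

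The selenium and redox genes on which the study centred gave mixed values. These lists and genes were singled out in the study on these same screens, so their direction is not independent evidence. PSTK is the kinase that turns seryl-tRNA into the precursor of selenocysteine, and it fell (NormZ -4.02, FDR = 0.0383). Its most abundant guide went from 444 and 439 CPM to 267 and 268 CPM, another from 8.72 and 10.6 to 3.48 and 5.18 CPM, and another from 7.49 and 7.77 to 0 and 0.357 CPM. The remaining PSTK guide went the other way, from 2.69 and 1.65 CPM to 6.97 and 5.36 CPM. Thus 3 of 4 guides had the sign of the gene's score. SEPSECS, which completes selenocysteine synthesis after PSTK, had a NormZ of 0.38, SEPHS2 and SECISBP2 both had -0.81, and EEFSEC had -1.78. Of 19 genes of the selenocompound theme PSTK and MTR were called, and of 7 selenocysteine insertion genes PSTK alone. GPX4, the selenoprotein that removes lipid hydroperoxides, had 0.56, and none of 8 glutathione peroxidases, 10 genes of glutathione and cystine supply or 17 ferroptosis regulators was called.

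SOD2, the manganese superoxide dismutase of the mitochondrial matrix, fell (NormZ -2.62, FDR = 0.384). Its guides went from 21.4 and 20.7 to 10.98 and 10.002 CPM, from 27.1 and 28.3 to 11.0 and 9.73 CPM, and from 99.6 and 105 to 81.8 and 78.7 CPM, with the fourth at 0 in all 4 libraries. Each measured SOD2 guide was lower in both drug libraries than in either vehicle library. Its call was lost without replicate 2 (-2.27) and without guides under a mean count of 30 (-2.26). TXN2, the mitochondrial thioredoxin, also fell (-2.66), the 2 genes called of the 16 of the superoxide, peroxide and thioredoxin list. Of 71 peroxisome genes, ABCD4 (-3.04), PMVK (-2.91) and SOD2 fell and EPHX2 rose (2.36). ABCD4 is known as a cobalamin transporter of the lysosome and PMVK as an enzyme of the mevalonate pathway, so the resisters of this list are not core peroxisome assembly factors.

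Calls among mitochondrial and energy genes are to be read beside those of all genes, of which 1.94% were called resisters and 0.716% sensitizers. Whether the share of any list differed from these was not tested. Of 72 mitochondrial ribosomal proteins, 4 fell (MRPL20 at -3.55, MRPL45, MRPL43 and MRPL48), with a median of -0.28. The first MRPL20 guide went from 15.5 and 12.7 CPM to 1.16 and 0.893 CPM, whereas a second moved little, from 48.9 and 43.8 to 40.9 and 42.7 CPM. Of 47 complex I genes NDUFV1 fell (-2.34) and the assembly factor TIMMDC1 rose (2.59), but neither was called without replicate 1 (-1.91 and 2.29) or without guides under a mean count of 30 (-1.93 and 2.02). Of 41 genes of the other respiratory complexes, cytochrome c (CYCS, -2.98, a gene with 1 guide) and COA6 (-2.66) fell. In glycolysis, PGK1 was the 1 of 18 called (-3.45), with its abundant guide going from 41.5 and 39.4 CPM to 5.702 and 5.001 CPM, and no gene of the 22 of the citrate cycle was called.

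The remaining lists held at most 3 calls each. RPL8 (-2.37) and RPS6 (-2.44, a gene with 1 guide) fell and RPS13 rose among 60 cytosolic ribosomal proteins. PSMD11 (-2.40) fell of 34 proteasome genes and SF3A2 of 34 core spliceosome genes. PMVK was among 2 genes that fell of 27 mevalonate and cholesterol genes. PIK3C3, the lipid kinase that starts autophagosome formation, fell (-2.98) of 19 autophagy genes at both of its guides, which went from 3.67 and 5.13 to 0.106 and 0.179 CPM and from 3.50 and 3.97 to 0.845 and 0.357 CPM. YAP1, the transcriptional coactivator restrained by the Hippo pathway, fell (-2.49) of 17 genes of that list. Its abundant guide went from 35.0 and 45.0 to 19.0 and 21.3 CPM, and its call was lost without replicate 2 (-2.04). The cell death effector BAK1 fell (-2.47) of 15 BCL2 family genes, and was not called without replicate 1 (-2.21) or without guides under a mean count of 30 (-1.65). In all, 19 of the 41 lists held no call, with medians from -0.77 (neddylation and cullins) to 0.35 (ferroptosis regulators). Besides those given above, they were the p53, PI3K, mTORC1, RAS to ERK, growth factor receptor, WNT, MYC, V-ATPase and lysosome, ABC drug transporter and hepatocyte transcription factor lists. In these, LAMP2 (-2.29) and LEF1 (-2.20) had the lowest values.

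Guides that rose were fewer and their gains smaller. PLEKHA1, an adaptor that binds phosphatidylinositol 3,4-bisphosphate, had the highest NormZ (3.78). Its 3 measured guides went from 160 and 149 to 240 and 238 CPM, from 83.2 and 81.2 to 135 and 125 CPM, and from 22.9 and 22.8 to 33.0 and 33.2 CPM. All 3 thus rose by similar amounts, with a median log2 ratio of 0.63. With Abemaciclib those PLEKHA1 guides stood at 321 and 323, 108 and 105, and 50.5 and 46.4 CPM. With Sorafenib they stood at 260 and 270, 96.2 and 92.4, and 97.1 and 94.1 CPM. Each value was above both vehicle libraries, which these screens share, so the rise was not particular to Palbociclib. TEX2, a lipid transfer protein of the endoplasmic reticulum (NormZ 3.41), also rose at every guide, with the first going from 26.1 and 29.6 to 68.8 and 63.4 CPM, the second from 11.6 and 11.6 to 23.9 and 17.9 CPM and the third from 8.23 and 9.18 to 18.9 and 20.5 CPM. With Abemaciclib those TEX2 guides stood at 36.9 and 39.8, 11.2 and 8.97, and 5.44 and 6.11 CPM. SREK1IP1 (3.37) and RPS13 (3.28) rested on less. SREK1IP1 has 1 guide, and the 2 RPS13 guides that rose went from 12 and 12 to 128 and 64 counts and from 4 and 0 to 122 and 46 counts. Over the 12 highest genes (3.22 to 3.78), 23 of the 24 guides with a mean T1 count of at least 30 were higher in both libraries and 1 was lower. That is a description only, since the same ratios chose the genes. The other members were ZSCAN16 (3.57), C5orf17 (3.51), CYLC1 (3.47), EVA1C (3.46), RINT1 (3.34), KRTAP12-3 (3.27), TMEM180 (3.25) and C5orf34 (3.22). The smallest FDR of any sensitizer was 0.851. Olfactory receptor genes, which liver cells are not known to need, gave 3 resisters (0.888%) and 5 sensitizers (1.48%) of 338. Over all genes the shares were 1.94% and 0.716%.

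Palbociclib was next compared directly with Abemaciclib, the second CDK4/6 inhibitor, without the vehicle libraries and at each drug's own dose. This asked which genes set the responses to 2 drugs with the same named targets apart. In this comparison 347 genes were lower with Palbociclib (1.92%) and 200 higher (1.11%), and 44 lower genes (0.244%) and 0 higher genes had an FDR under 0.05. With guides under a mean count of 30 left out, the 200 higher genes became 20. The lowest were NAPRT1 (NormZ -7.35), ACTR3C (-5.97, 1 guide), UBE2C (-5.37), KLHL9 (-5.28) and POFUT1 (-5.10). KLHL9, a substrate adaptor of the cullin 3 ligase that acts in mitosis, rose with Palbociclib against vehicle (2.92) and more so with Abemaciclib. Its guides stood at 5.54 and 4.96 CPM with vehicle, 12.9 and 12.5 CPM with Palbociclib and 51.9 and 54.8 CPM with Abemaciclib for the first, and at 11.2 and 10.3, 17.0 and 18.0, and 74.8 and 81.1 CPM for the second. UBE2C, the ubiquitin-conjugating enzyme of the anaphase-promoting complex, had a guide at 26.7 and 27.3 CPM with vehicle, 41.2 and 43.1 CPM with Palbociclib and 159 and 150 CPM with Abemaciclib. Against the shared vehicle libraries, NAPRT1 scored -0.04 with Palbociclib and 4.23 with Abemaciclib, and UBE2C 0.16 and 2.55. The lowest genes of this comparison were thus not called resisters of Palbociclib.

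Higher with Palbociclib than with Abemaciclib were DDX21 (NormZ 4.15), GSDMA (4.11), RALYL (4.07), TMEM126B (4.02) and SSTR2 (3.99). PSTK was also higher (3.29, with a normal interval of 1.33 to 5.25), its abundant guide standing at 267 and 268 CPM with Palbociclib against 193 and 188 CPM with Abemaciclib. For the remaining genes of the target pathway no difference was called: CDK6 differed by -0.47 (interval -2.43 to 1.49), CCND1 by 1.18 (-0.78 to 3.14) and RB1 by -0.15 (-2.11 to 1.81). CDK9 differed by 0.09 (-1.87 to 2.05). All of these intervals, that of PSTK included, have the same width by construction and hold no spread of the gene's own guides or libraries. They do not show that the drugs act alike on these genes. None of the 12 lowest genes against vehicle was called in either direction between the drugs, a comparison that uses the same Palbociclib libraries as their choice.

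Against the mean of the other 5 inhibitors (Abemaciclib, Sorafenib, Regorafenib, Lenvatinib and Erastin), 358 genes were lower with Palbociclib (1.99%) and 148 higher (0.821%), with 33 (0.183%) and 0 at an FDR under 0.05. With guides under a mean count of 30 left out, the 148 higher genes became 46. OXSR1, a kinase of the salt and volume response, was lowest (-5.35). It was followed by the olfactory receptor gene OR2AP1 (-5.30), NAPRT1 (-4.91), the PRC2 accessory protein PHF19 (-4.84) and LRRN4 (-4.73). None of these 5 was called against vehicle (OXSR1 -0.57, PHF19 1.51). TEX2 was highest (3.93), followed by the iron-sulfur assembly factor ISCA2 (3.55), OTUD1 (3.51), ZNF707 (3.36) and RUFY2 (3.28). Both contrasts use the same Palbociclib libraries, so a gene chosen for its score in one tends to lie on that side in the other. With that limit, 3 of the 12 lowest genes against vehicle were called lower than with the other drugs, and 0 higher. The 3 were TNFSF9 (-3.38), ZNF560 (-2.95) and GADD45G (-2.66). The remaining genes of the 12 were not called against the other drugs, among them CDK9 (-1.93) and CDK11A (-1.35).

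The SNU-398 screen, which shares no library with Hep3B, was used to ask which Palbociclib responses recurred. In SNU-398, 286 genes were called resisters (1.59%) and 171 sensitizers (0.948%), and 7 resisters (0.0388%) had an FDR under 0.05. Called in both lines were 23 resisters, which is 6.59% of the Hep3B list and 8.04% of the SNU-398 list, and 5 Hep3B resisters were called sensitizers in SNU-398. Of the 23, 16 were still shared without replicate 1, 12 without replicate 2 and 7 with guides under a mean count of 30 left out. For sensitizers, 1 gene was shared (LPCAT2, 0.775% of the Hep3B list), and 3 were called opposite ways. NormZ was nearly unrelated between the lines across all 18025 genes in both tables (Pearson r = 0.041 across genes, which are not independent replicates), and 187 of the 349 Hep3B resisters were below 0 in SNU-398. None of the 12 lowest Hep3B genes was called in SNU-398, where they ranged from -1.53 to 0.72. CDK9 had 0.60 there and CDK6 1.05.

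Among the 23 shared resisters were genes of chromatin and transcription. WDR82, a subunit of the SET1 methyltransferase complexes (-3.40 in Hep3B and -4.74 in SNU-398), MEN1, which works with MLL methyltransferases (-2.78 and -2.75), the demethylase KDM5C (-2.53 and -3.00), ING1 (-2.38 and -4.33), YEATS4 (-2.64 and -2.95) and the elongation factors TCEA1 (-3.36 and -2.84) and ELOF1 (-2.38 and -3.53) were in this set. The 2 measurable WDR82 guides went from 12.2 and 13.2 to 4.22 and 2.50 CPM and from 9.94 and 9.42 to 1.27 and 0.714 CPM in Hep3B. In SNU-398 they went from 12.1 and 11.8 to 2.64 and 3.96 CPM and from 5.004 and 5.71 to 1.45 and 0.410 CPM, so both guides fell in both lines. The Hep3B calls of ING1 and ELOF1 were lost without replicate 2 (-2.14 and -2.18), with a pseudocount of 1 (both -2.18) and without guides under a mean count of 30 (both -1.72). These chromatin genes were grouped after their values were seen and no test was made of the group.

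SOD2 had the lowest SNU-398 score of the 23 (-5.72), MRPL20 had -3.46, and VHL, the substrate receptor that marks hypoxia-inducible factors for destruction, had -3.48 in Hep3B (-2.28, not called, without replicate 2) and -2.89 in SNU-398. Further metabolic members were CMPK1, DGKQ and APOE, and others were BTC, C1orf116, EGR4, MINK1, SLC9A3, SYNDIG1L, TEN1, TLX3 and TMPRSS5. Over the 23 genes, 58 of 61 guides with a mean T1 count of at least 30 were lower in both Hep3B libraries and 2 were higher. That only describes the set, since the same Hep3B ratios entered its choice. No gene passed an FDR of 0.05 for a difference between the lines (0 of 18025, with 912 at an unadjusted p under 0.05), so genes called in Hep3B alone are not shown to be particular to it. CDKN2D came nearest of the target pathway, at 1.27 in Hep3B and -4.33 in SNU-398 (FDR = 0.174 for the difference between the scores).

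Expression of the called genes was read from the 3 RNA libraries labelled as wild type Hep3B, which do not show a hepatocyte profile. Of 11 hepatocyte and liver tumour markers 1 reached 1 FPKM (HNF4A, 3.51 ± 0.286, SD, n = 3), ALB stood at 0.523 ± 0.142 FPKM, and AFP, APOA1 and TTR were listed at 0 in all 3. None of 4 blood and 4 endothelial markers and 1 of 4 fibroblast markers (COL1A1, 3.67 FPKM) reached 1 FPKM. Guide counts hold no expression, so the identity of the screened cells could not be checked, and the levels below describe these RNA libraries. In them 56.5% of the 17155 matched genes reached 1 FPKM, against 62.9% of resisters (210 of 334), 53.7% of sensitizers (66 of 123) and 68.2% of the shared resisters (15 of 22). Of the 11 matched genes among the 12 lowest, 6 reached 1 FPKM, CDK9 among them at 29.5 FPKM. MS4A8, ZNF560 and GADD45G were listed at 0, and CDK11A had 0.251 FPKM. RB1 stood at 13.9 ± 1.44 FPKM.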

How the data were processed

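Per the labels and the study's methods, the authors sequenced guide cassettes, counted them with Bowtie2 (version not given in the sources used here) and deposited raw counts per guide, 1 table for each line. RNA values were deposited as FPKM, with HISAT2 2.0.5 and featureCounts 1.5.0-p3 named in the submitters' processing notes. The group means, fold changes and p-values of the authors' own comparison beside them were not used.

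Here counts were scaled to 10000000 per library, a pseudocount of 5 was added, and the log2 ratio of each drug library to the T1 library of the same number was divided by the SD of guides in windows of 1000 ordered by T1 count (step 25). These values were summed over guides and both libraries, divided by the square root of their number and standardised over 18029 genes, following the published DrugZ steps. Control guides were left out of the scores. The windows ran from high to low T1 count, and the SD was replaced only by an equal or larger one. The line difference is the difference of the 2 scores over its SD. Single guides were tested with edgeR 4.0.16 (TMM, quasi-likelihood, all 16 Hep3B screen libraries, default expression filter), with DESeq2 1.42.0 as an alternative. Intervals of NormZ are normal intervals that take the SD of the scores over all genes, so their width is the same for every gene. Scripts used Python 3.11.15 and R 4.3.3 and were tested on simulated data. CPM are relative to the library total, and a count of 0 allows up to 3 counts; both cover counting error only and take each deposited count as 1 fragment.

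The members, the 41 gene lists and the tests were chosen with earlier results of these data known. The text names the 12 genes at each end of NormZ, the whole CDK4/6, cyclin D and RB list, PSTK, SEPSECS, SOD2 and GPX4, the members of each list with the smallest p, the 5 genes at each end of the contrasts with other inhibitors, genes called in both lines and the control guides. No guide sequence or genome was used here, so none is printed. Values of a few called genes are not reported here.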

Additional observations from a re-analysis of the deposited data

How the results depend on the processing

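The number of resisters stayed between 332 and 374 and that of sensitizers between 91 and 141 with a pseudocount of 1, median-of-ratios scaling, crossed or no replicate pairing, or either library pair left out (349 and 129 in the main result). Leaving out guides with a mean reference count under 30 changed most: 215 resisters (157 of them in the main list), 66 sensitizers (32 in the main list), 20 genes higher than with Abemaciclib, 46 higher than with the other inhibitors, 8 shared resisters (7 of the 23) and 0 resisters at an FDR under 0.05, where the main result had 16; fewer guides and genes enter that fit. Leaving out 1 replicate number gave 332 to 348 resisters, 119 to 130 sensitizers and 0 to 1 genes that differ between the lines. Of the 80 named genes called, 37 of 78 lost their call at the count minimum, 11 at the pseudocount of 1, 8 without replicate 1 and 16 without replicate 2, and none changed sign. Without replicate 1 the calls lost were NDUFV1 (-1.91), RPL8 (-2.04), TMPRSS5 (-2.06), PKMYT1 (-2.16), BAK1 (-2.21), MRPL48 (-2.24), CDK6 (-2.29) and TIMMDC1 (2.29). Without replicate 2 they included MRPL43 (-1.82), CMPK1 (-2.03), YAP1 (-2.04), APOE (-2.10), PSMD11 (-2.13), ING1 (-2.14), COA6 (-2.15), ELOF1 (-2.18), RPS6 (-2.19), C1orf116 (-2.26), SOD2 (-2.27), VHL (-2.28), OTUD1 (2.08), LPCAT2 (2.09) and EPHX2 (2.22).

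Replicate numbers were shared by the groups, and library 1 was the deeper in every Hep3B group. Deviations of same-numbered Palbociclib and T1 libraries were uncorrelated (r = 0.021 over 19941 guides, 2 pairs). What else the number marks is not given and was not tested. With a replicate block edgeR gave 14307 lower and 10483 higher guides, and without the pairing NormZ gave 345 and 131. Other fits gave 11752 to 15978 lower and 8634 to 10249 higher guides. Depth limits the genes whose guides were lost by T1.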
